A study of Mus musculus with 4 samples.

Results

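Prrx1, Prrx2, Twist1, Twist2, Shox2 and Snai1 are transcription factor genes of the limb bud mesenchyme, the loose tissue beneath the ectoderm that forms the skeleton and connective tissue of the limb. They were taken by name from a table of 17712 genes, and all 6 were present in each of its 4 libraries. The libraries are RNA sequencing of whole forelimbs from littermate mouse embryos of the outbred Swiss Webster stock. Wild type and Shh null embryos gave 2 libraries each. All embryos had 33 to 35 somites, and the labels give the stage as E10.25 in one field and E10.5 in another (days of embryonic development). Shh encodes Sonic hedgehog, the signal secreted from the posterior margin of the bud. The labels do not describe the Shh allele, no drug or further allele is named for either group, and the design text calls the replicates technical. No label names the animals behind a library, so p-values measure only the spread between libraries, which may be technical.

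Prrx1 and Prrx2 encode paired-related homeodomain proteins that act redundantly in limb and facial mesenchyme, and a Prrx1 enhancer is widely used to drive transgenes in limb bud mesenchyme. Twist1 and Twist2 encode basic helix-loop-helix (bHLH) proteins that bind DNA as dimers with E proteins or with related bHLH proteins such as Hand2, and Twist1 is needed for limb bud outgrowth. Shox2 encodes a homeodomain protein required for the proximal skeleton of the limb, and Snai1 encodes a zinc finger repressor of epithelial genes such as Cdh1 during epithelial-mesenchymal transition.

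Prrx1 lies on the minus strand of chromosome 1 (163245119 to 163313710, mm10, GENCODE M21), and Twist2 on the plus strand of the same chromosome (91801461 to 91848028). Prrx2 (30834972 to 30881251) and Snai1 (167538195 to 167542814) lie far apart on the plus strand of chromosome 2. Twist1 lies on chromosome 12 (33957671 to 33959829, plus strand) and Shox2 on chromosome 3 (66971727 to 66981771, minus strand). All 6 are protein-coding. No stretch of 50 bases was shared between the annotated transcripts of any pair of the 6 genes, on either strand. The Twist2 exons share 1477 bases with an antisense gene, Gm29100, that has no row in the table of values, and the Shox2 exons share 153 bases with Rsrc1 on the opposite strand. Whether counting used strand is not given in the sources used here. Reads from these overlaps therefore cannot be assigned to 1 gene.

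Promoter sequences are shown for Prrx1 and Twist1, which were higher in the Shh null forelimbs, and for Snai1, the only 1 of the 6 with an E-box in the window. An E-box is the DNA element bound by bHLH dimers and by Snail proteins. Sequences are from RefSeq (GRCm38.p6), written 5′ to 3′ on the strand of the gene, and stop where an annotated exon starts. All 6 genes matched 1 window each. The capitals mark matches to the motifs named below.
Prrx1, chr1:163313711-163313900, minus strand: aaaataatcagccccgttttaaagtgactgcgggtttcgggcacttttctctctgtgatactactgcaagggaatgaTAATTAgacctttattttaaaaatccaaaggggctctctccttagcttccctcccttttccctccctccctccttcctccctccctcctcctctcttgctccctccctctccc
Twist1, chr12:33957421-33957670, plus strand: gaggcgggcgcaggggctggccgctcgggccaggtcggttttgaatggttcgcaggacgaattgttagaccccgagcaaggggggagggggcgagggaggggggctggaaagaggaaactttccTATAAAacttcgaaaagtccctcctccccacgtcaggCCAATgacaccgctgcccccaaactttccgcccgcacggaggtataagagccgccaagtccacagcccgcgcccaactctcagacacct
Snai1, chr2:167537945-167538194, plus strand: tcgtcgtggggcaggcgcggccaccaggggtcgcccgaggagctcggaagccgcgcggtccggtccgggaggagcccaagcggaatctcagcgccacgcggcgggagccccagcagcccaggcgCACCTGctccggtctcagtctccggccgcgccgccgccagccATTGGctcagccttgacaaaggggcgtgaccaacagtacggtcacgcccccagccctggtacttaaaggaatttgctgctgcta
The 250 bases before each start were searched on both strands. Of 32851 windows of that length over all genes, 66.2% held an E-box (CANNTG), 17.2% its Snail-type form CAGGTG, which is also a CANNTG match, 4.84% the paired-type homeodomain site TAATTA and 0.225% the GLI site GACCACCCA. In addition 12.4% held TATAAA and 33.8% held CCAAT. Prrx1 had TAATTA at position −173 from the start and none of the other motifs. Twist1 had TATAAA at −126 and CCAAT at −89. Of the genes whose windows are not shown, Shox2 had TATAAA at −203, Twist2 had CCAAT at −63 and Prrx2 had no match. Snai1 had the Snail-type E-box at −126, written CACCTG on this strand, and CCAAT at −84, written ATTGG. No window of the 6 held the GLI site. A match is a description of the letters only. The Prrx2 window lies within an annotated Prrx2 exon, and the Twist2 window within an exon of Gm29100.

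Over all genes, the libraries held between 18456502 and 29620468 recovered reads. Values are CPM, read counts scaled by the authors to a common library size. Shh was at 11.4 and 7.88 CPM in wild type and at 3.15 and 2.42 CPM in Shh null, lower in both libraries of the group labelled null (limma adjusted p = 0.00615), a call that ended without Shh null 1 (0.0524) or Shh null 2 (0.0577). The limb mesenchyme markers Fgf10, Lmx1b, Msx1, Lhx9 and Pdgfra, which do not tell forelimb from hindlimb, were all present, with Fgf10 at 14.2 to 30.2 CPM. The forelimb gene Tbx5 was at 61.5 to 80.2 CPM. Of the 2 hindlimb markers Pitx1 did not exceed 0.457 CPM and Tbx4 was at 3.11 to 4.53 CPM, so hindlimb marker RNA was low but not absent. Xist and 4 Y-linked genes were called between the genotypes, with Ddx3y at 106 to 119 CPM in wild type and 39.1 to 42.3 CPM in Shh null. Xist, expressed from the inactive X chromosome, was at 225 and 152 CPM in wild type against 522 and 468 CPM in Shh null, a call that ended without Shh null 1 (limma adjusted p = 0.0577). The part of this difference in sex-linked genes in the results on the 6 genes was not tested. The summed level of 6 erythroid genes ranged from 2920 to 10900 CPM and was highest in wild type 1, with overlapping groups.

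In the Shh null forelimbs Twist1, Prrx2 and Prrx1 rose by 1.41-fold to 1.62-fold, while Twist2, Shox2 and Snai1 did not pass the test. Called genes are those with an adjusted p under 0.05 (limma on log2(CPM + 1), Benjamini-Hochberg over 13224 tested genes). Of the 6 genes, 3 were called, all higher, against 2.48% of all tested genes called in either direction and 1.24% called higher. On the recovered reads edgeR and DESeq2 each called Twist1, Prrx1 and Prrx2 as well, against 2.45% and 3.98% of all tested genes. Without Shh null 1 the call remained for Twist1 alone, and without Shh null 2 for 0 of the 6. The groups did not overlap for 4 of the 6 genes, against 50.2% of all tested genes. Twist1, Prrx1 and Prrx2 were higher without overlap, against 25.1% of tested genes, and Snai1 was lower without overlap, against 25.0%. All 6 genes passed the filter on low values. In whole-forelimb RNA, a change in the share of cells of a type and a change in RNA per cell cannot be told apart.

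**Figure D1:**
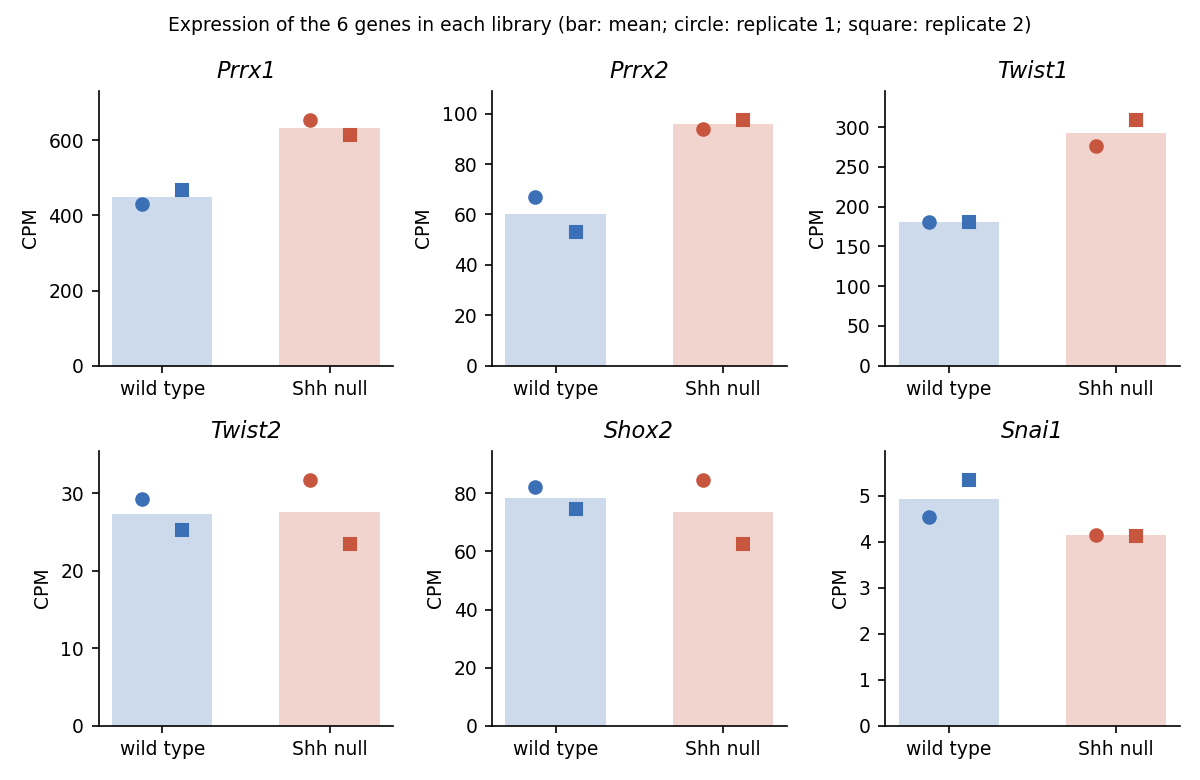
CPM of each gene (vertical axis, from 0) in wild type (blue) and Shh null (red), with bars at the mean of 2 libraries, circles for replicate 1 and squares for replicate 2. Both red points lie above both blue points for Prrx1, Prrx2 and Twist1, and the groups interleave for Twist2 and Shox2.

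Twist1 had the smallest p-value of the 6. Wild type gave 181 and 181 CPM, and Shh null gave 276 and 309 CPM. The wild-type libraries were almost equal (ratio 0.997, 95% exact binomial interval 0.954 to 1.04), and both null libraries lay well above them. The means of 181 ± 0.393 and 293 ± 23.1 CPM (SD, n = 2) gave a 1.62-fold rise, with a log2 fold change of 0.69 ± 0.10 (SE; limma adjusted p = 0.00723). Its p-value ranked 82 of 13224. This call ended without Shh null 2, with a log2 fold change of 0.61 (adjusted p = 0.0596).

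Its paralogue Twist2, known mainly from dermal and craniofacial mesenchyme, was measured at 29.3 and 25.2 CPM in wild type and at 31.7 and 23.4 CPM in Shh null. The highest and the lowest value both came from the Shh null libraries, which differed 1.35-fold from each other, more than counting error allows (95% exact binomial interval 1.21 to 1.52). The means were 27.3 ± 2.94 and 27.6 ± 5.84 CPM (SD, n = 2). The log2 fold change of 0.00 had a 95% interval from −0.35 to 0.36 (limma adjusted p = 0.992). This interval, 0.784-fold to 1.28-fold, lies below the 1.62-fold rise measured for Twist1.

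The ratio of Twist1 to Twist2 CPM within a library was 6.16 and 7.20 in wild type against 8.72 and 13.2 in Shh null. Both null libraries thus lay above both wild-type libraries, by 0.69 on average on the log2 scale. An exact two-sided permutation test of this difference gave p = 0.333, which is the smallest value that 2 against 2 libraries can give. Without 1 library at a time the log2 difference stayed positive, between 0.39 and 0.99.

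Prrx1 and Prrx2 were both higher. Prrx1 was measured at 431 and 468 CPM in wild type and at 654 and 613 CPM in Shh null. The gap between the groups was wider than that between libraries of 1 genotype, whose replicate 1 to replicate 2 ratios were 0.921 and 1.07. The means of 449 ± 26.3 and 634 ± 29.3 CPM (SD, n = 2) gave a 1.41-fold rise (log2 fold change 0.50 ± 0.10 SE, limma adjusted p = 0.037). This call was lost when wild type 1 (limma adjusted p = 0.112), Shh null 1 (0.282) or Shh null 2 (0.0917) was left out, and with no filter on low values (0.087). Log2 fold changes in these fits were 0.44 to 0.54.

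Prrx2 was measured at 66.9 and 53.2 CPM in wild type and at 94.0 and 97.5 CPM in Shh null. Here the wild-type libraries stood 1.26-fold apart, and the ratio of the null libraries was 0.964. The means of 60.0 ± 9.73 and 95.8 ± 2.48 CPM (SD, n = 2) gave a 1.60-fold rise (log2 fold change 0.67 ± 0.12 SE, limma adjusted p = 0.0213). That call was lost without Shh null 1 (log2 fold change 0.70, adjusted p = 0.187), without Shh null 2 (0.65, 0.102) and with no filter on low values (0.67, 0.0514).

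The ratio of Prrx1 to Prrx2 CPM was 6.44 and 8.80 in wild type against 6.96 and 6.28 in Shh null. These ranges overlapped, and the mean log2 ratio differed by −0.19 (exact two-sided permutation p = 0.667). Without wild type 2 the difference was 0.04. With 2 against 2 libraries this test cannot go below 0.333, so it shows neither a difference nor its absence.

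Shox2 was measured at 82.1 and 74.6 CPM in wild type and at 84.6 and 62.5 CPM in Shh null. The null libraries enclosed both wild-type values and differed 1.35-fold from each other (95% exact binomial interval 1.26 to 1.45). The means were 78.3 ± 5.23 and 73.6 ± 15.7 CPM (SD, n = 2), with a log2 fold change of −0.10 and a 95% interval from −0.42 to 0.21 (limma adjusted p = 0.734). The direction rested on 1 library: without Shh null 2 the log2 fold change was 0.11. Rsrc1, which overlaps Shox2 in part, was at 128 and 136 CPM in wild type and at 139 and 114 CPM in Shh null, and was not called.

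Snai1 was the lowest of the 6, at 4.53 and 5.34 CPM in wild type against 4.15 and 4.12 CPM in Shh null, which correspond to 129, 97, 100 and 90 reads. Both null values lay below both wild-type values. The means of 4.94 ± 0.577 and 4.13 ± 0.0213 CPM (SD, n = 2) differed by −0.21 ± 0.17 (SE) on the log2 scale, with a 95% interval from −0.59 to 0.18 (limma adjusted p = 0.564). On the reads pooled over each genotype the ratio of null to wild type was 0.853, with an exact binomial interval of 0.700 to 1.04 that covers counting error only.

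**Figure D2:**
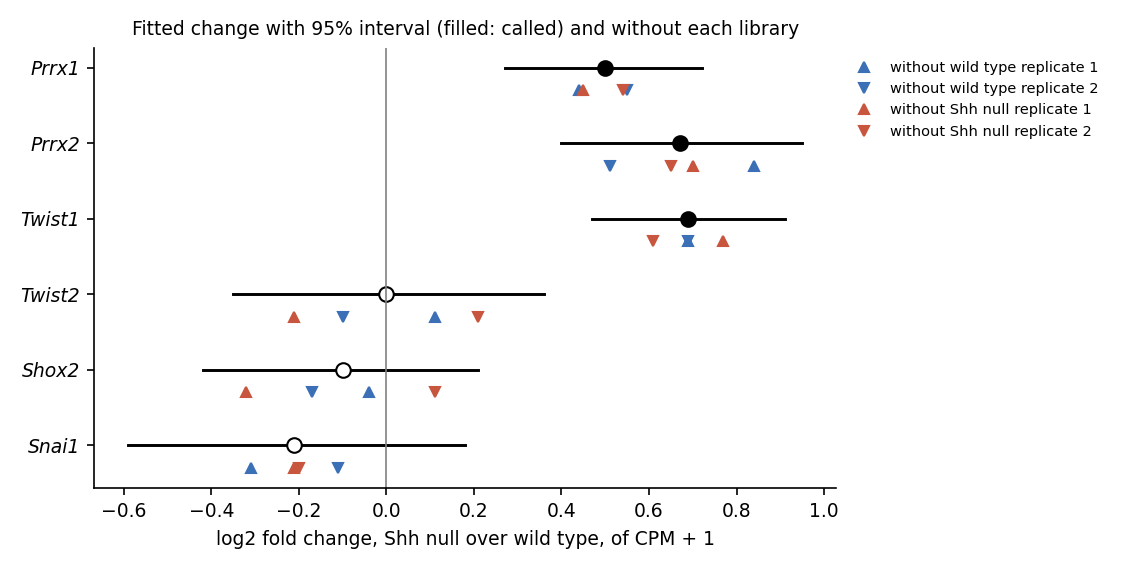
Log2 fold change of CPM + 1, Shh null over wild type (horizontal axis), with the 95% interval of the fit over all genes as a line and filled circles for called genes. Triangles give the value without each library in turn, which stays between 0.44 and 0.84 for Prrx1, Prrx2 and Twist1 and lies on both sides of 0 for Twist2 and Shox2.

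Levels were compared between genes per kilobase of annotated exon. In wild type Twist1 was highest, at 111 and 111 CPM per kb, followed by Prrx1 at 38.9 and 42.3, Prrx2 at 34.1 and 27.1, Shox2 at 24.8 and 22.5, Twist2 at 9.24 and 7.93 and Snai1 at 2.79 and 3.30. No neighbours in this order overlapped between libraries. The order was the same in Shh null, from 170 and 190 CPM per kb for Twist1 to 2.56 and 2.54 for Snai1. Among 12443 tested genes with a length, Twist1 ranked 426 by mean level per kb in wild type and 231 in Shh null, and Prrx1 ranked 1253 and 768. The exons of all annotated isoforms were joined, 11.1 kb for Prrx1 against 1.63 kb for Twist1. A shorter expressed isoform of Prrx1 would raise its value, so its place beside Prrx2 depends on this length.

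**Figure D3:**
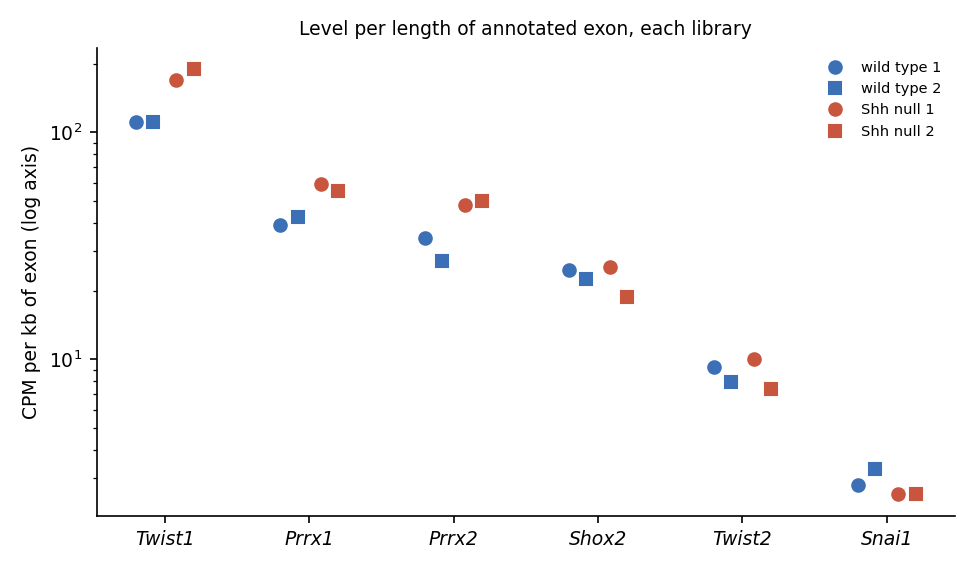
CPM per kilobase of annotated exon (vertical axis, log scale) of each gene in each library, in order of the wild-type mean. Twist1 lies at 111 to 190, and Snai1 at 2.54 to 3.30.

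Genes known as partners or inhibitors of the Twist proteins were described from a list of 9 genes. Of its 9 tested genes, 4 rose, 1 fell and 4 were not called, and the median log2 fold change was 0.42 against −0.0005 over all tested genes. Over all tested genes 1.24% were called higher and 1.24% lower, the shares to set beside this list and each list below. The E protein genes Tcf3, Tcf4 and Tcf12, whose products dimerise with Twist, were not called. Tcf12, picked as the example after its values were seen, was measured at 535 and 515 CPM in wild type and at 526 and 588 CPM in Shh null, with overlapping groups. Tcf3 overlapped as well, and Tcf4 was higher without overlap, at 384 and 388 CPM in wild type against 449 and 421 CPM in Shh null. Of the 9 genes, 6 were higher without overlap and 1 was lower, against 25.1% and 25.0% of all tested genes. Of the Id genes, whose products bind E proteins and keep them from DNA, 3 rose and Id4 was not called. Id2 rose 1.76-fold (196 ± 0.604 to 345 ± 44.1 CPM, SD, n = 2), and Id1 and Id3, picked out after seeing their values, rose 1.63-fold and 1.48-fold. Hand1, a bHLH gene with few reads here, rose from 0.211 and 0.551 CPM to 2.49 and 1.83 CPM, a ratio of 6.34 over the pooled reads (exact binomial interval 3.72 to 11.5), and lost its call with quantile normalization (limma adjusted p = 0.0575).

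Hand2, the posterior bHLH gene whose product can pair with Twist1, moved the other way. It fell 4.46-fold, from 54.1 ± 2.15 to 12.1 ± 2.73 CPM (SD, n = 2), and the groups were far apart. The ratio of Twist1 to Hand2 CPM within a library was 3.25 and 3.45 in wild type against 19.7 and 30.3 in Shh null, so its mean was 7.46-fold higher. This ratio was chosen after the values were seen, and its size depends on transcript length, so only its change between libraries is compared. The exact two-sided permutation p was 0.333, the smallest possible.

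Of the other genes of the Snail and Zeb families, which encode repressors of epithelial genes, Snai2 was the only 1 called among 3 tested. Snai2 was measured at 11.3 and 11.7 CPM in wild type and at 21.4 and 22.8 CPM in Shh null. The 1.92-fold rise (log2 fold change 0.89, limma adjusted p = 0.0103) ended as a call without either Shh null library (0.0888 and 0.0702). The ratio of Snai2 to Snai1 CPM, also chosen after the values were seen, was 2.49 and 2.19 in wild type against 5.15 and 5.53 in Shh null (exact two-sided permutation p = 0.333). Zeb1, added after its values were seen, was at 66.7 and 75.2 CPM in wild type against 52.7 and 59.8 CPM in Shh null, and Zeb2 at 18.9 ± 2.98 CPM in wild type and 14.1 ± 1.56 CPM in Shh null (SD, n = 2). Both were lower in each null library and neither was called, and the median log2 fold change of the 3 tested genes was −0.33.

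**Figure D4:**
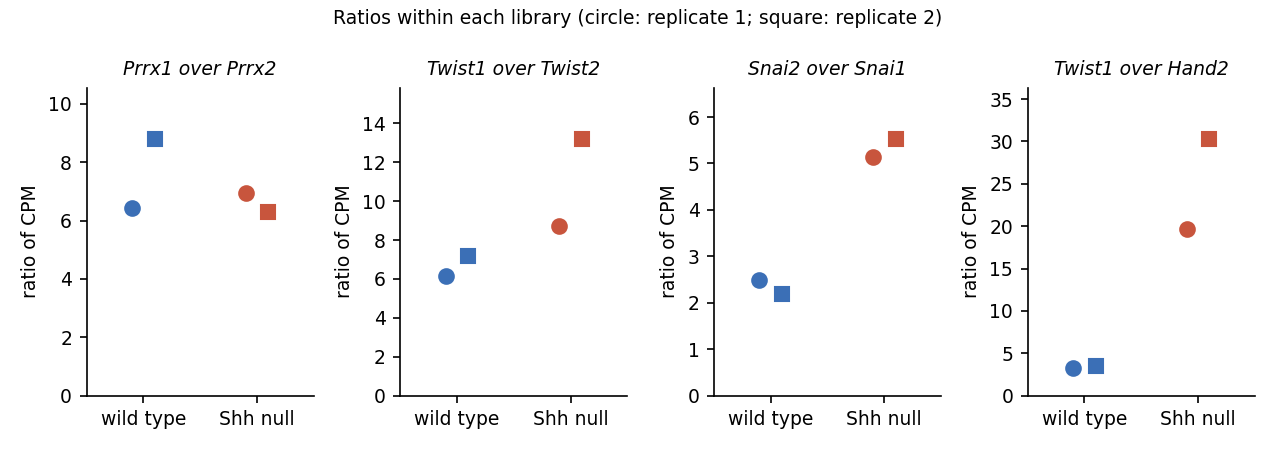
Ratio of the CPM of 2 genes within each library (vertical axes, from 0), with circles for replicate 1 and squares for replicate 2. Both Shh null libraries lie above both wild-type libraries for Twist1 over Twist2, Snai2 over Snai1 and Twist1 over Hand2, and the groups overlap for Prrx1 over Prrx2.

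Epithelial genes include known targets of repression by Snail and Twist proteins. Of 15 tested epithelial adhesion and keratin genes 1 rose and 14 were not called (median log2 fold change 0.21). Of the 15, 8 were higher in Shh null without overlap and 0 were lower, against 25.1% and 25.0% of all tested genes. An unadjusted limma p under 0.05 was reached by 4, all higher. The gene called was Dsp, which encodes a desmosomal protein, at 76.5 and 80.8 CPM in wild type against 115 and 121 CPM in Shh null, and its call ended without either Shh null library (limma adjusted p = 0.122 and 0.0856). Cdh1, which encodes E-cadherin, was at 31.3 and 43.1 CPM in wild type against 49.1 and 46.5 CPM in Shh null, and was called only without wild type 2 (0.0143) among the alternatives run. Of 15 tested mesenchymal adhesion and matrix genes 2 rose and 13 were not called (median log2 fold change 0.26), while DESeq2 called 4 higher. Of these 15, 8 were higher without overlap and 0 were lower, against the same 25.1% and 25.0%. Col1a2, a chain of type I collagen, rose 2.17-fold from 381 and 470 CPM to 1050 and 788 CPM, and Col1a1, the other chain, rose 2.60-fold from 12.4 and 15.0 CPM to 26.2 and 44.9 CPM. The Col1a2 call ended without Shh null 1 (0.0757), and the Col1a1 call without Shh null 2 (0.071) and with no filter (0.055).

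Among relatives of Prrx and Shox2, 3 of 19 other paired-class homeobox genes were tested, of which 1 rose and 2 were not called (median log2 fold change 0.40). Alx4, which acts in anterior mesenchyme, rose 2.34-fold, from 64.1 and 68.4 CPM to 166 and 144 CPM. Of 3 tested genes on a list of 10 other mesodermal bHLH genes Msc rose 2.33-fold from 2.88 and 2.70 CPM and 2 were not called (median −0.04). The Msc call ended without Shh null 1 (limma adjusted p = 0.355), with no filter (0.11), at a filter of 5 CPM (0.0513) and with quantile normalization (0.0884). Scx, the tendon gene among the 2 not called, was at 12.9 ± 3.28 CPM in wild type and 11.2 ± 1.26 CPM in Shh null (SD, n = 2), with overlapping groups.

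Genes linked to Twist1 in limb and skull moved in both directions. Of 17 tested genes 4 rose, 6 fell and 7 were not called (median log2 fold change −0.02). Gli1, Grem1 and Ptch1, which depend on hedgehog signalling in the bud, fell the furthest, with log2 fold changes of −3.72, −2.43 and −2.21. The 4 that rose were Msx2, Alx4, Runx2 and Fgfr3, of which Msx2 and Fgfr3 were picked out after seeing their values. Runx2, a bone regulator whose product Twist1 can inhibit, rose 2.43-fold from 3.51 and 4.57 CPM to 10.4 and 9.24 CPM, a call that ended without either Shh null library (limma adjusted p = 0.172 and 0.0601).

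The list of proximal limb genes and skeletal genes linked to Shox2 had 16 tested genes, of which 1 rose (Runx2), 3 fell and 12 were not called (median log2 fold change −0.02). The 3 lower genes were Hoxd11, Hoxd10 and Hoxa10, the last named after its values were seen. Group 10 Hox genes are known for patterning the proximal segment of the limb and group 11 for the middle segment. Hoxd10 went from 78.7 and 85.1 CPM to 40.5 and 46.9 CPM, and its call ended without Shh null 1 (limma adjusted p = 0.0583). The proximal genes Meis1 (94.8 and 114 CPM in wild type, 132 and 131 CPM in Shh null) and Meis2 (118 and 127, 147 and 151 CPM), named after their values were seen, did not overlap between the groups and were not called.

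Other early regulators of limb bud mesenchyme gave 6 genes higher, 6 lower and 11 not called of 23 tested (median log2 fold change 0.19). The largest changes were falls of Osr2, Hand2 and Sall1, with log2 fold changes of −2.70, −2.09 and −1.82. This list and the lists linked to Twist1 and to Shox2 hold genes known to respond to Sonic hedgehog, so changes were partly built into their choice. Tbx5, which starts the forelimb bud, was at 65.0 and 61.5 CPM in wild type and at 80.2 and 65.0 CPM in Shh null and was not called.

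**Figure D5:**
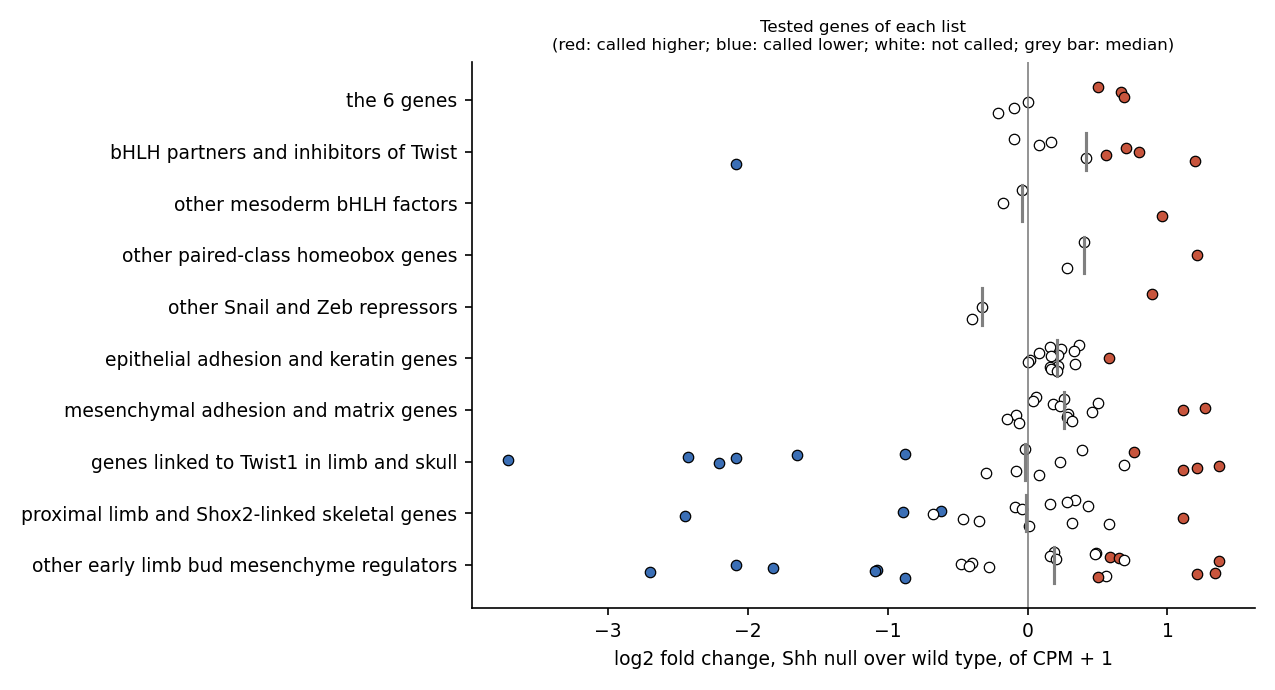
Log2 fold change of CPM + 1 (horizontal axis) for the 6 genes and for the tested genes of each list, red where called higher, blue where called lower and white where not called, with a grey bar at the median of each list. The 3 called genes of the 6 lie between 0.50 and 0.69, and the called genes of the lists reach −3.72 (Gli1).

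The summed level of 6 forelimb mesenchyme markers was 911 and 1010 CPM in wild type against 1220 and 1130 CPM in Shh null. Most of it came from Pdgfra (578 and 668 CPM in wild type, 731 and 676 CPM in Shh null) and Lhx9 (224 and 237, 369 and 356 CPM), so ratios to this sum depend largely on these genes. Of the 6 markers 1 rose (Lhx9), 1 fell (Fgf10) and 4 were not called. Without overlap, 4 were higher in Shh null and 1 was lower, against 25.1% and 25.0% of all tested genes. The Lhx9 call ended without Shh null 1 (limma adjusted p = 0.0976), and the Fgf10 call without Shh null 1 (0.136) or Shh null 2 (0.0629). As a percentage of this sum, Twist1 was 19.8 and 17.9 in wild type against 22.7 and 27.2 in Shh null. Prrx1 was 47.3 and 46.3 against 53.7 and 54.0, and Prrx2 was 7.34 and 5.26 against 7.72 and 8.60. All 3 thus stayed higher in both null libraries relative to the markers, by 1.32-fold, 1.15-fold and 1.30-fold, smaller than the differences in CPM. Snai1 and Shox2 were lower in both null libraries on this scale, at 0.341 and 0.363 against 0.497 and 0.529 for Snai1 and at 6.95 and 5.51 against 9.0 and 7.38 for Shox2. These ratios were chosen after the values were seen. The exact two-sided permutation p was 0.333 for each of these 5 genes, the smallest possible. Twist2 overlapped between the groups, at 3.22 and 2.49 in wild type against 2.60 and 2.07 in Shh null (exact two-sided permutation p = 0.667). Relative to Pdgfra alone, which was not called, Twist1, Prrx1 and Prrx2 were 1.43-fold, 1.25-fold and 1.4-fold higher in Shh null, again without overlap. On that scale Shox2 overlapped between the groups, at 14.2 and 11.2 percent of Pdgfra in wild type against 11.6 and 9.25 percent in Shh null (exact two-sided permutation p = 0.667). Twist2 overlapped as well, at 5.07 and 3.77 percent in wild type against 4.33 and 3.47 percent in Shh null, and Snai1 was lower in both null libraries.

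Markers of other tissues were compared in the same way. Of 10 tested surface ectoderm markers limma and edgeR called 0 and DESeq2 called 1 (Wnt6). An unadjusted limma p under 0.05 was reached by 4 of them, all with higher means in Shh null. Their sum was 416 and 384 CPM in wild type against 462 and 476 CPM in Shh null. Of 6 tested macrophage markers 1 rose (Cx3cr1), and all 6 were higher without overlap, against 25.1% of all tested genes. The sum over the 8 macrophage genes with values was 18.7 and 16.5 CPM in wild type against 31.6 and 31.0 CPM in Shh null. The sums of 7 muscle precursor markers (113 and 122 CPM in wild type, 130 and 130 CPM in Shh null) and 6 neural crest markers (22.8 and 22.7, 33.4 and 32.3 CPM) were also higher in Shh null, and those of 8 endothelial markers (197 and 258, 236 and 239 CPM) overlapped. Of the neural crest genes 1 of 3 tested rose (Erbb3), with Foxd3 at no more than 0.110 CPM and Sox10 at no more than 0.551 CPM. The calls of Cx3cr1 and Erbb3 ended without Shh null 1 (limma adjusted p = 0.321 and 0.202), without Shh null 2 (0.0577 and 0.0858) and with no filter (0.0782 and 0.0533), and that of Cx3cr1 also with quantile normalization (0.075). Somite and trunk markers summed to 79.3 and 79.2 CPM in wild type against 98.9 and 84.1 CPM in Shh null. Most of this sum came from Tbx18 (62.2 and 57.4 CPM in wild type, 74.0 and 60.3 CPM in Shh null). Tbx18, named after its values were seen, is also on the list of early limb bud regulators. Of the 4 tested, Pax1 rose and 2 overlapped. Meox1 was lower without overlap and was not called (log2 fold change −0.4, limma adjusted p = 0.264). Of 4 tested muscle precursor genes and 8 tested endothelial genes 0 were called by limma, edgeR or DESeq2, with 1 and 0 at an unadjusted p under 0.05, and the same tools called 0 of the 6 erythroid genes, with 0 at that level. Without wild type 2 limma called all 6 erythroid genes lower. The part of these markers in the results on the 6 genes was not tested.

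The genes with the nearest profiles were found by the Euclidean distance between centred log2(CPM + 1) values over the 4 libraries, among 12300 genes. They were Aldh3b2 and Rasl10b for Twist1 (0.0168 and 0.0287), Maneal and Phactr3 for Prrx1 (0.0107 and 0.0303) and Irf8 and Epha6 for Prrx2 (0.0427 and 0.0681). For the genes not called they were Tppp and Gadd45g for Twist2, Doc2g and Itgae for Shox2, and Tigd3 and Negr1 for Snai1. Some of these genes were near the filter of 1 CPM. Irf8 was at 0.737 and 0.441 CPM in wild type and at 1.49 and 1.60 CPM in Shh null. Its rise was 2.63-fold, against 1.60-fold for Prrx2, since the 1 CPM added before the log2 shrinks changes at such levels. With 4 libraries such distances only describe these samples.

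In the authors' deposited table, Twist1 (log2 fold change 0.69, false discovery rate 1.84e-05), Prrx2 (0.67, 0.000375) and Prrx1 (0.50, 0.00700) were higher in Shh null. The false discovery rates of Snai1, Shox2 and Twist2 in the authors' deposited table were 0.738, 0.899 and 1.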

How the data were processed

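Build mm10, edgeR 3.4.2, HTSeq 0.5.4p5, SAMtools and TopHat2 2.0.9 are named, with no roles, in the submitters' processing notes. The authors deposited a signal per gene and library, named normalized counts. Every value was a whole multiple of its column's smallest positive value (100% within 0.001 reads), so whole reads were recovered. A read was worth 0.0351 to 0.0551 CPM, and a count of 0 allows a level of up to 3 reads, or 0.105 to 0.165 CPM. Intervals and such limits cover counting error only. The authors' own comparison, with its deposited log2 fold changes, p-values and false discovery rates, is quoted only by name.

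Genes with at least 1 CPM in at least 2 libraries were fitted on log2(CPM + 1) with limma 3.58.1 (intensity trend, R 4.3.3) and genotype as the only term. The log2 scale understates changes of low genes. Folds are ratios of mean CPM. Tests on simulated counts of this comparison (13180 genes) recovered 41.8% of 1.5-fold changes, 88.1% of 2-fold changes and 100% of 4-fold changes, with 5 of 12980 unchanged genes called.

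The 6 genes and the gene lists were chosen with earlier results of these data known. A few listed genes are not reported here and were left out of the list counts and sums. Named genes are the 6, up to 3 called genes per list with the largest change (or the 2 largest where fewer than 2 were called), the 2 nearest profiles per gene, Shh and the sex-linked genes. Exon lengths are from GENCODE M21, with 94.1% of tested genes matched. Alternatives included edgeR 4.0.16 and DESeq2 1.42.0 on recovered reads.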

Additional observations from a re-analysis of the deposited data

How the results depend on the processing

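The 6 genes were refitted under 13 alternatives each, except Snai1, which a filter of 5 CPM removed. Twist1 kept its call under all scalings, filters and tests run with all 4 libraries (log2 fold change 0.68 to 0.80). Without 1 library at a time the log2 fold changes ranged from 0.61 to 0.77 for Twist1, from 0.44 to 0.55 for Prrx1 and from 0.51 to 0.84 for Prrx2, and of the 6 genes between 0 and 3 were called. With no filter on low values 1 of the 6 was called, with log2 fold changes of 0.50 for Prrx1 and 0.67 for Prrx2 that no longer passed. The fits without 1 library ranged from −0.21 to 0.21 for Twist2, from −0.32 to 0.11 for Shox2 and from −0.31 to −0.11 for Snai1, and with median-ratio scaling Twist2 was at −0.01. The log2 difference of Prrx1 over Prrx2 ranged from −0.41 to 0.04 without 1 library. Over all genes 328 were called, 170 with no filter, 526 with DESeq2, 324 with edgeR (307 of them shared with limma in the same direction) and between 61 (without Shh null 1) and 749 (without wild type 2) without 1 library. Over the listed genes 39 were called, and between 18 and 56 without 1 library. Among other named genes, the direction turned without wild type 1 for Scx (without 1 library −0.42 to 0.06), Pax3 (−0.02 to 0.56), Klf1 (−1.44 to 0.55), Hbb-bh1 (−1.32 to 0.54) and Ngfr (−0.16 to 0.40), for Hbb-bh1 also without Shh null 1 (0.08), and for Ngfr also with quantile normalization (−0.01) and without Shh null 2 (−0.06). The cause was not tested, except that fits without 1 library have fewer samples and the fit with no filter tests more genes.

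Same-numbered libraries did not deviate together (r = −0.20 over 13224 genes), so the numbers are not taken as pairs. With the replicate block over all genes 396 were called, and Prrx1 had a log2 fold change of 0.50 and adjusted p = 0.0661, while Prrx2 and Twist1 kept their calls. With the crossed replicate block, added after seeing the data, 1386 genes were called over all, 64 of the listed genes and 3 of the 6.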
